A study of Homo sapiens with 12 samples.

Results

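The knockdown BrdU list names the places where newly made DNA was detected in H1 human embryonic stem cells after siRNA treatment against EP300 and CREBBP, and it was set here against the H3K18ac list of untreated H1 cells. All 1755 regions of the knockdown list were used, out of 169273 regions in the 6 lists of the series, together with the 65946 regions of the H1 H3K18ac list. Each list comes from 1 library, so every value below is a description without replicate error or test. The knockdown and control cultures were H1 cells between passages 35 and 45 in mTESR1 medium, transfected with siRNA to EP300 and CREBBP or with non-targeting siRNA, given HA 1077 at 10 µM, and collected after 72 h. The H1 cells for H3K18ac had the same line, medium and passage range but no siRNA, so the mark was mapped in cells that had gone through neither transfection, and HA 1077 is not among their labelled treatments. Lists from 2 lines grown without siRNA are also used below. These are the lung fibroblast line IMR90, between passages 7 and 12, and the osteosarcoma line Saos-2. Their BrdU lists are compared with knockdown regions only, and the IMR90 H3K18ac list with knockdown and control regions. Marker genes of H1 cells, and the levels of EP300 and CREBBP after siRNA, were not analysed here.

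H3K18ac is an acetyl group carried by a lysine near the start of histone H3. EP300 (p300) and CREBBP (CBP) are closely related acetyltransferases that place this mark, and it is known from active promoters and enhancers. BrdU is a thymidine analogue that cells build into DNA as they copy it, so DNA pulled down with an antibody to BrdU is enriched for stretches made during the labelling. Open, acetylated chromatin tends to be copied early in S phase, and many replication origins lie close to promoters.

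Regions of every list lie on a grid of 100 bp windows, and 1506 of the 1755 knockdown regions were exactly 100 bp long, a single window. The other 249 were wider, up to 700 bp, and the whole knockdown list covered 211 kb. The H1 control list held 5086 regions over 1.08 Mb, with 1887 of them wider than 100 bp. The H1 H3K18ac list covered 15.7 Mb in regions of 100 to 4200 bp. The deposited lists give a whole-number score per region whose meaning is not stated, and it was used only to rank regions inside their own list. Read depth is unknown, so a place without a listed region is a place that was not called, which is not the same as one without new DNA.

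Few knockdown regions touched the mark, but many lay near it. An H1 H3K18ac region overlapped 32 of the 1755 knockdown regions by at least 1 bp, which is 1.82% (95% Wilson interval 1.29 to 2.56, covering the counting of regions only). A further 202 regions (11.5%) lay 1 to 1000 bp from the nearest edge of the mark, 655 (37.3%) lay between 1 and 10 kb away, 620 (35.3%) between 10 and 50 kb, and 246 (14.0%) beyond 50 kb. Counted together, 889 regions, or 50.7% (48.3 to 53.0), overlapped the mark or lay within 10 kb of it. The median distance was 9701 bp and the middle 50% of the regions lay between 2701 and 27801 bp. The most distant region lay 720201 bp from any H3K18ac region. With H3K18ac regions of 200 bp or more alone, the shares were 1.08% for overlap and 29.9% within 10 kb.

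These shares can be read against how much genome each distance class holds. Counted in 100 bp windows over 2783 Mb, outside 500 kb bins in which no list has a region, the H1 mark itself took up 0.566% of the genome and its surroundings up to 1000 bp 3.98%. The classes of 1 to 10 kb, 10 to 50 kb and beyond 50 kb held 21.9%, 37.7% and 35.9%. Knockdown regions were therefore more frequent than their share of genome in the 3 nearest classes, close to it between 10 and 50 kb, and less frequent beyond 50 kb. Per Mb of genome there were 2.03 knockdown regions in the overlap class (exact Poisson interval 1.39 to 2.87), 1.83 (1.58 to 2.10) at 1 to 1000 bp, 1.07 (0.993 to 1.16) at 1 to 10 kb, 0.591 (0.546 to 0.640) at 10 to 50 kb and 0.247 (0.217 to 0.279) beyond 50 kb. The density in the overlap class was 8.25 times that beyond 50 kb, and 5.58 times among single-window knockdown regions. For the H1 control list these ratios were higher, at 59.4 for all regions and 16.9 for single windows. The knockdown ratio was 18.01 among regions in the upper 50% by score and 4.88 among those in no other BrdU list. With H3K18ac regions of 200 bp or more it was 4.68.

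Among single-window knockdown regions, the gradient was seen outside the mark. When only the 1506 single-window knockdown regions were counted, so that every region had the same chance to touch a neighbour by its size, their density was 0.160 per Mb (0.128 to 0.198) at more than 100 kb from the mark, 0.613 (0.538 to 0.694) at 10 to 20 kb, 1.02 (0.894 to 1.16) at 2 to 5 kb and 1.58 (1.28 to 1.94) in the first 500 bp. Inside the mark it was 1.27 per Mb (0.776 to 1.96), from 20 regions, which did not differ beyond counting error from the 500 bp beside it. With so few regions, a step up or down at the edge could not be read. Control single windows had 4.62 per Mb (4.09 to 5.19) in the first 500 bp and 6.42 (5.23 to 7.80) inside the mark, with intervals that do not meet. The difference between the lists in this last step was not tested. Wider knockdown regions had 0.762 per Mb (0.394 to 1.33) in the overlap class and 0.398 (0.289 to 0.534) at 1 to 1000 bp, with overlapping intervals.

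**Figure D1:**
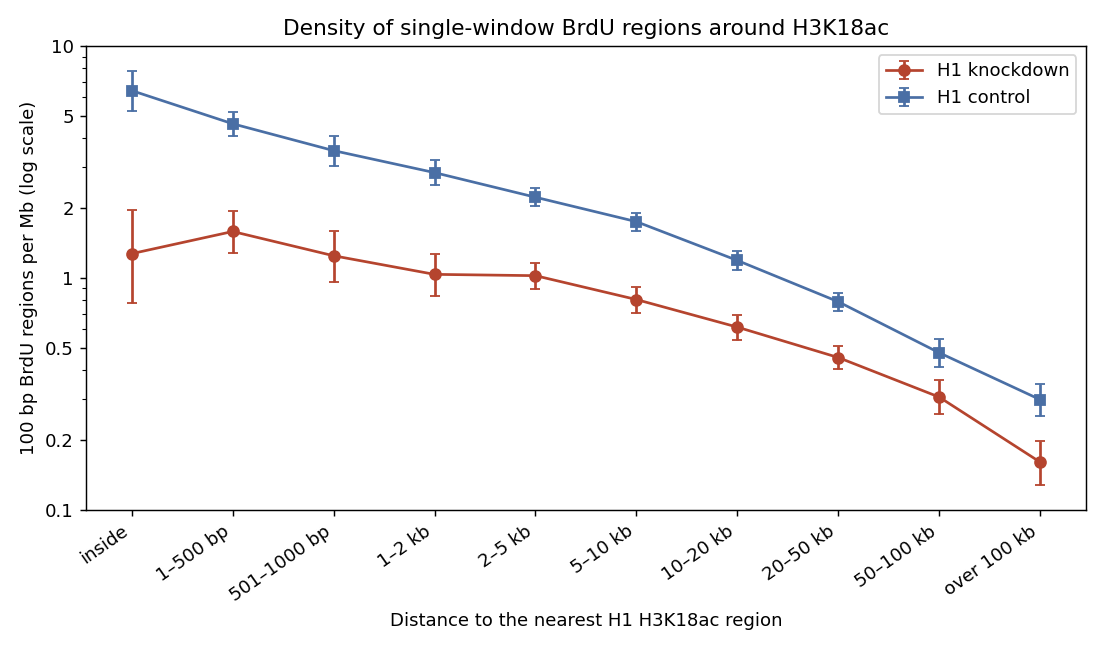
Single-window BrdU regions per Mb of genome (log axis) by distance to the nearest H1 H3K18ac region, for the H1 knockdown and the H1 control list; points are counts divided by the genome length at that distance and bars are exact 95% Poisson intervals. Knockdown density is 1.58 per Mb in the first 500 bp and 1.27 inside the mark, while control density is highest inside the mark at 6.42 per Mb.

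Set side by side, the knockdown list touched the mark less often than the control list. The mark overlapped 32 of 1755 knockdown regions (1.82%) and 445 of 5086 control regions (8.75%), a difference of -6.93 percentage points (knockdown minus control, Newcombe 95% interval -7.89 to -5.88). Within 10 kb, overlap included, the shares were 50.7% of knockdown regions and 62.7% of control regions, a difference of -12.0 points (-14.7 to -9.34). The size of both gaps depended on how they were counted. The overlap difference was -3.60 points with at least 50% of the region overlapped, -3.65 at midpoints and -18.9 when the control list was cut to its 1755 regions of highest score. The difference within 10 kb was -24.0 points with that cut, and -4.07 points when only the knockdown regions in the upper 50% by score were set against the whole control list. The median distance to the mark was 9701 bp for knockdown regions and 5701 bp for control regions. These intervals cover the counting of regions, not the difference between 2 cultures, and neighbouring regions are not independent.

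Part of that gap went with region width, and a smaller gap was present at equal width. Among single-window regions the overlap shares were 20 of 1506 (1.33%, 0.861 to 2.04) in the knockdown list and 101 of 3199 (3.16%, 2.61 to 3.82) in the control list, a difference of -1.83 points (-2.64 to -0.926). Among wider regions they were 12 of 249 (4.82%) in the knockdown list and 344 of 1887 (18.2%) in the control list, a difference of -13.4 points (-16.1 to -9.61), but wide control regions are also longer. At exactly 200 bp the mark overlapped 7 of 179 knockdown regions (3.91%) and 59 of 805 control regions (7.33%), and the interval of that difference (-6.26 to 0.836 points) included 0. At exactly 300 bp it overlapped 2 of 49 knockdown regions and 49 of 325 control regions, with an interval of -16.2 to -0.754 points.

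**Figure D2:**
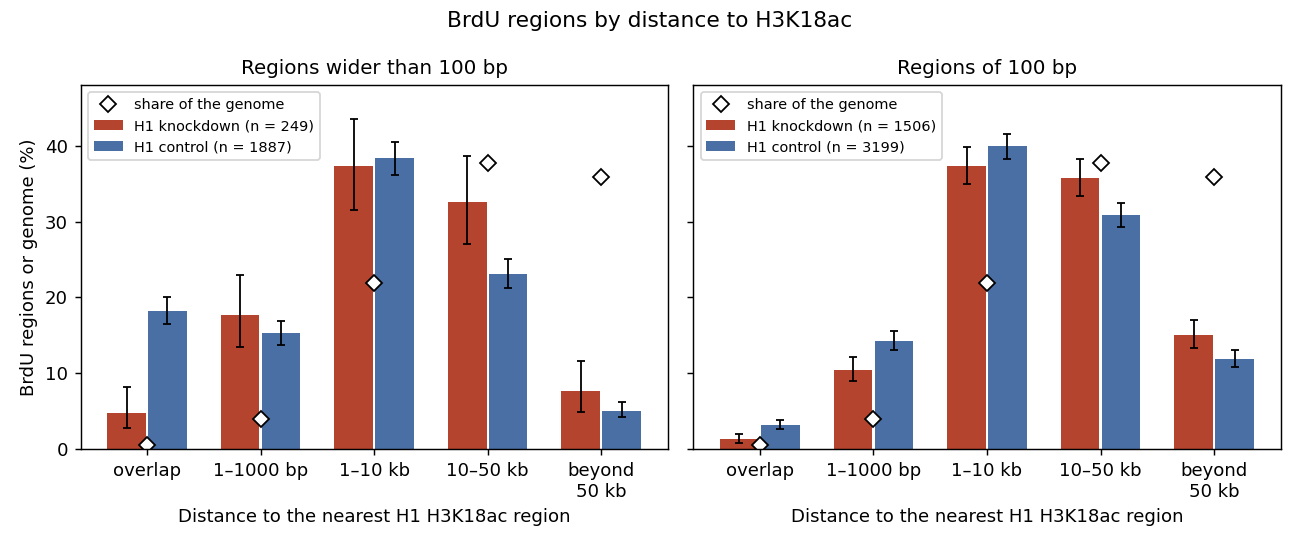
Share of BrdU regions in each class of distance to the nearest H1 H3K18ac region, for regions wider than 100 bp (left) and of 100 bp (right), H1 knockdown beside H1 control; bars carry 95% Wilson intervals and diamonds give the share of the genome in the class. In both panels the knockdown overlap share (4.82% and 1.33%) lies below the control share (18.2% and 3.16%).

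Within the knockdown list, wider regions sat closer to the mark than single windows. Wider regions overlapped it in 4.82% of cases and single windows in 1.33%, a difference of 3.49 points (1.33 to 6.94). That difference was 2.29 points when at least 50% of the region had to be overlapped, 1.88 (0.154 to 4.92) at region midpoints, 2.01 with H3K18ac regions of 200 bp or more, and 1.88 with an interval that included 0 (-0.0301 to 6.25) among regions in no other BrdU list. Within 1 kb the shares were 22.5% of wider regions and 11.8% of single windows, and within 10 kb 59.8% and 49.1%. Only 19 of the wider regions (7.63%) lay beyond 50 kb, against 227 of the single windows (15.1%). The median distance was 5801 bp for wider regions and 10301 bp for single windows. Wider regions also scored higher, and 177 of the 249 belonged to the highest of 5 equal groups by score.

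Distance to the mark was shortest in the highest-scoring group of knockdown regions. With the list cut into 5 groups of 351 by score rank, the median distance from the lowest to the highest group was 17501, 11901, 12101, 9601 and 4101 bp. The share within 10 kb, overlap included, was 38.2% (33.2 to 43.4) in the lowest group, 46.4%, 46.2% and 51.9% in the next 3, and 70.7% (65.7 to 75.2) in the highest, beside 50.7% for the whole list. Direct overlap numbered 2, 3, 7, 2 and 18 regions from lowest to highest, so 18 of the 32 overlapping regions came from the highest group, where they made up 5.13% (3.27 to 7.96). Beyond 50 kb lay 79 regions of the lowest group and 21 of the highest. The number of H3K18ac regions within 50 kb was also ordered by score, with a median of 2 around regions of the lowest group and 6 around those of the highest, 4 for the whole list, and 1 for all 100 bp windows of the genome.

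The order by score was also present at a fixed width. When the 1506 single-window regions were ranked among themselves, 39.5% of the lowest group lay within 10 kb of the mark (119 of 301) and 68.9% of the highest (208 of 302). Direct overlap in the same groups was 2 of 301 and 7 of 302, and with so few regions no order in overlap could be read between neighbouring groups.

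Beside control single windows ranked in the same way, knockdown single windows touched the mark less often in the highest group and lay near it less often in the middle groups. In the highest group, 68.9% of knockdown and 70.9% of control single windows lay within 10 kb of the mark, a difference of -2.06 points whose interval included 0 (-8.46 to 4.08). Within 1 kb the shares were 23.5% of knockdown and 30.8% of control single windows, a difference of -7.27 points (-13.0 to -1.12). Overlap in that group was 2.32% of knockdown and 7.34% of control single windows (47 of 640), a difference of -5.03 points (-7.60 to -2.05). In groups 2 to 4 the knockdown share within 10 kb was lower than the control share, with intervals that excluded 0. In group 2 it was 43.9% of knockdown and 53.0% of control single windows, a difference of -9.11 points (-15.8 to -2.27). It was 42.9% of knockdown and 55.5% of control single windows in group 3 (difference -12.6 points, -19.3 to -5.77) and at 50.5% and 63.0% in group 4 (difference -12.5 points, -19.2 to -5.69). In the lowest group the shares within 10 kb were 39.5% of knockdown and 44.1% of control single windows, and the interval of the difference (-11.2 to 2.19 points) included 0. Whether the difference between the lists itself changes from group to group was not tested. These intervals again cover the counting of regions from 1 library per list, not the difference between 2 cultures. Groups were ranked inside each list, so the same group number does not mean the same strength of signal.

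**Figure D3:**
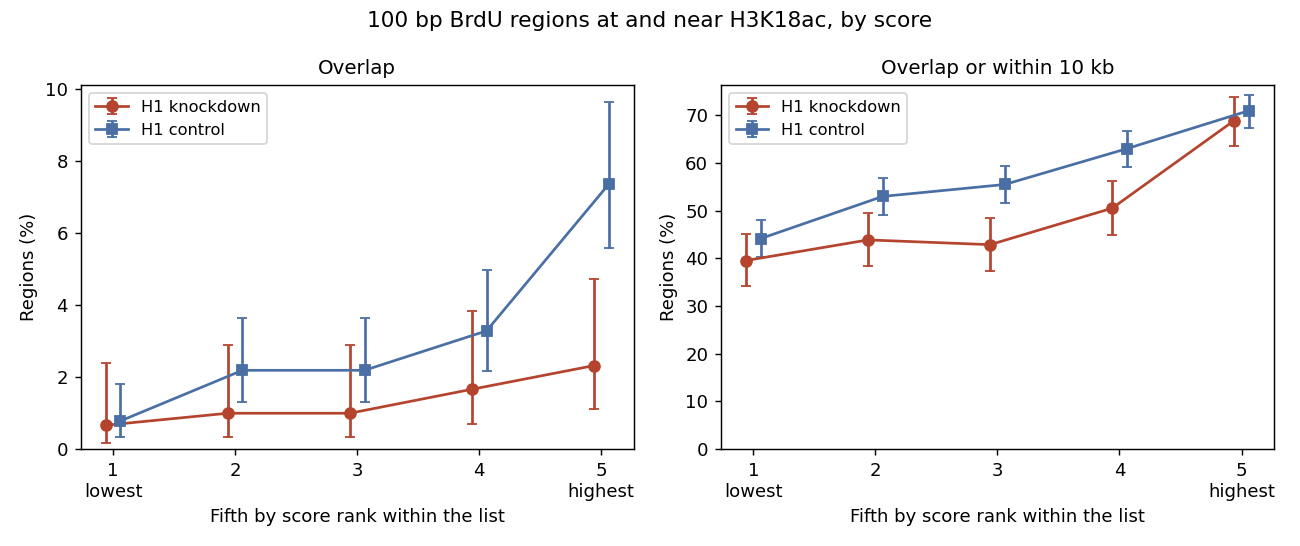
Share of 100 bp BrdU regions that overlap an H1 H3K18ac region (left) or overlap it or lie within 10 kb (right), in 5 groups by score rank among the single-window regions of each list; bars are 95% Wilson intervals. In the highest group the knockdown and control lists are close within 10 kb (68.9% and 70.9%) and apart for overlap (2.32% and 7.34%).

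The 32 overlapping regions were wider than 100 bp more often than the whole list, and most lay wholly inside the mark. Of these, 20 were single windows and 12 (37.5%) were wider, beside 14.2% wider regions in the whole knockdown list. Wholly inside their H3K18ac region lay 25, 8 of them with identical ends. Both lists lie on the same 100 bp grid, so a single window that touches the mark must lie wholly inside it. In 5 cases the BrdU region was the larger and held the H3K18ac region, and 2 overlapped in part. Together they measured 5500 bp, of which 4000 bp (72.7%) lay in the mark. The 445 overlapping control regions measured 218 kb, of which 91.5 kb (42.1%) lay in the mark. Of these control regions 344 were wider than 100 bp, so the 2 covered shares do not compare regions of equal width. The 32 knockdown regions met 32 different H3K18ac regions, spread over 16 of the 22 autosomes and the X chromosome.

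Most of the strongest overlapping regions were places that other BrdU lists share. Of the 10 with the highest scores, the H1 control list overlapped 8, Saos-2 9 and IMR90 3, and in the highest score group of the whole knockdown list another BrdU list overlapped 67.8% of the regions (238 of 351). The overlapping region with the highest score, on chromosome 10 (135151301 to 135152000, hg19), was also the highest-scoring of the whole knockdown list and one of its longest at 700 bp. It held a single H3K18ac window at 135151501 to 135151600, and the H1 control and Saos-2 lists overlapped it too. The next, on chromosome 12 (108999701 to 109000100), ranked 6 in the list and shared 100 of its 400 bp with an H3K18ac region at 108999601 to 108999800. On chromosome 21 the 200 bp region at 44580201 to 44580400 lay inside a broad H3K18ac region of 1200 bp (44579301 to 44580500), and on chromosome 3 the region at 194073001 to 194073200 lay at the right edge of a 500 bp one. These last 2 were present in the BrdU lists of H1 control, IMR90 and Saos-2.

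Of the remaining 6 among the 10 highest scores, 2 met single H3K18ac windows and 4 met wider stretches of the mark. The regions at 14296801 to 14297000 on chromosome 3 and 240268501 to 240268700 on chromosome 2 each had 1 of their 2 windows in the mark. On chromosome 22 the single window at 45687401 to 45687500 lay inside a 1000 bp H3K18ac region, and on chromosome 5 that at 172023901 to 172024000 lay inside a 700 bp one. All 4 were found again in the H1 control and Saos-2 lists. The region on chromosome 19 at 6587001 to 6587300 was shared with Saos-2 but not with H1 control. The last of the 10, at 62623601 to 62624000 on chromosome 11, filled the left end of a 1400 bp H3K18ac region and was in no other BrdU list, while the IMR90 H3K18ac list overlapped it.

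The 22 overlapping regions of lower score were mostly single windows, as was the whole knockdown list. They scored 18 to 157, and 18 of them were single windows, as were 1506 of all 1755 regions. H1 control overlapped 2 of the 22, IMR90 2 and Saos-2 3, beside 9.06%, 4.73% and 13.0% of the whole list. Of their H3K18ac partners, 10 were single windows and 5 were 1000 bp or longer. The 5 on such broad regions are named here after their values were seen. On chromosome 12, the region at 54673201 to 54673400 lay inside 1300 bp of the mark and that at 72233001 to 72233100 inside 1600 bp. The others were on chromosome 1 (32860701 to 32860800, inside 1300 bp), chromosome 5 (133341801 to 133341900, at the right edge of 1300 bp) and chromosome X (53710101 to 53710200, inside 1200 bp). None of these 5 was in another BrdU list, which was also true of 1484 of all 1755 knockdown regions.

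**Figure D4:**
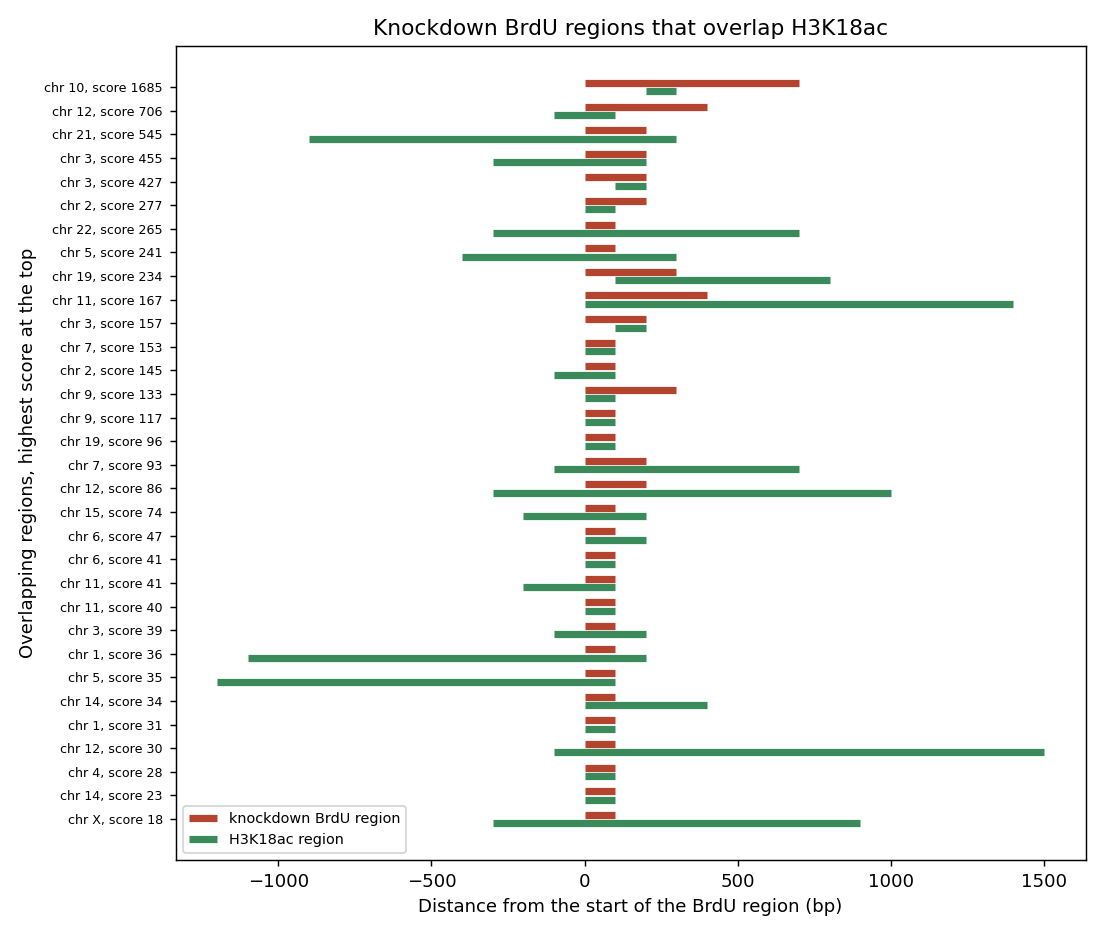
The 32 knockdown BrdU regions that overlap H1 H3K18ac, aligned at their start (x axis, bp) and ordered by score from the top, each with its H3K18ac region drawn beneath it. Most BrdU regions are 1 window long and so, on the shared grid, must lie inside the mark. The top region, 700 bp long, holds a single H3K18ac window.

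Strong knockdown regions also lay at every other distance from the mark. At 1 to 1000 bp the 3 highest scores belonged to regions on chromosome 12 (110073501 to 110073800, 401 bp from the mark), chromosome 19 (35789601 to 35789800, 701 bp) and chromosome 17 (7078801 to 7079100, 901 bp). All 3 had a single H3K18ac window as their neighbour, and all 3 were in the H1 control and Saos-2 lists. Between 1 and 10 kb they were on chromosome 12 (108989001 to 108989500, 1601 bp from the mark), chromosome 10 (85946501 to 85946800, 5701 bp) and chromosome 9 (92099401 to 92099700, 6201 bp). The first of these lies about 10 kb from the overlapping region on the same chromosome described above, and both ranked among the 6 highest scores of the list.

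The regions ranked 2 and 3 by score were far from the mark. They lay on chromosome 13 (31416401 to 31417100, 20001 bp from the nearest H3K18ac region) and on chromosome 7 (142927601 to 142928100, 48201 bp), and the third of that class was also on chromosome 7 (47739201 to 47739700, 19601 bp). All 3 were present in H1 control, IMR90 and Saos-2. Beyond 50 kb the highest scores were lower, at ranks 20, 136 and 157. The first, on chromosome 11 (131995401 to 131995600), lay 76101 bp from the mark and was in all 3 other BrdU lists, the second, on the same chromosome at 132032401 to 132032500, was in H1 control alone, and the third, on chromosome 1 (10170901 to 10171200), was in none.

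Knockdown regions near the mark were found again in other BrdU lists more often than those far from it. H1 control overlapped 10 of the 32 regions in the overlap class (31.3%), 50 of 202 at 1 to 1000 bp (24.8%), 54 of 655 at 1 to 10 kb (8.24%), 42 of 620 at 10 to 50 kb (6.77%) and 3 of 246 beyond 50 kb (1.22%, 0.416 to 3.52). For Saos-2 the shares in the same order were 37.5%, 26.2%, 15.6%, 8.39% and 4.07%, and for IMR90 they were 15.6%, 8.91%, 5.04%, 4.03% and 0.813%. Scores followed the same order, with a median of 94.5 in the overlap class, 58 at 1 to 1000 bp, 38 at 1 to 10 kb, 34 at 10 to 50 kb and 32 beyond 50 kb. Width differed too, and regions wider than 100 bp made up 37.5% of the overlap class and 7.72% of the class beyond 50 kb. Among single windows alone, the H1 control shares from nearest to farthest class were 20.0%, 19.0%, 5.16%, 3.53% and 0.881%. Within the highest score group alone, at least 1 of the 3 other BrdU lists overlapped 13 of 18 regions in the overlap class (72.2%, 49.1 to 87.5), 64 of 86 at 1 to 1000 bp (74.4%), 100 of 144 at 1 to 10 kb (69.4%), 51 of 82 at 10 to 50 kb (62.2%) and 10 of 21 beyond 50 kb (47.6%, 28.3 to 67.6). For these lists together, the intervals of the nearest and the farthest class overlapped. H1 control alone overlapped 55.6% of the highest-scoring regions in the overlap class (33.7 to 75.4), 55.8% at 1 to 1000 bp (45.3 to 65.8), 49 of 144 at 1 to 10 kb, 41.5% at 10 to 50 kb and 14.3% beyond 50 kb (4.98 to 34.6). There the intervals at 1 to 1000 bp and beyond 50 kb did not meet, but those of the overlap class and beyond 50 kb did. The Saos-2 shares in that score group, from nearest to farthest class, were 61.1%, 60.5%, 63.9%, 54.9% and 42.9%. For IMR90 they were 27.8%, 20.9%, 22.9%, 30.5% and 4.76%, highest at 10 to 50 kb.

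**Figure D5:**
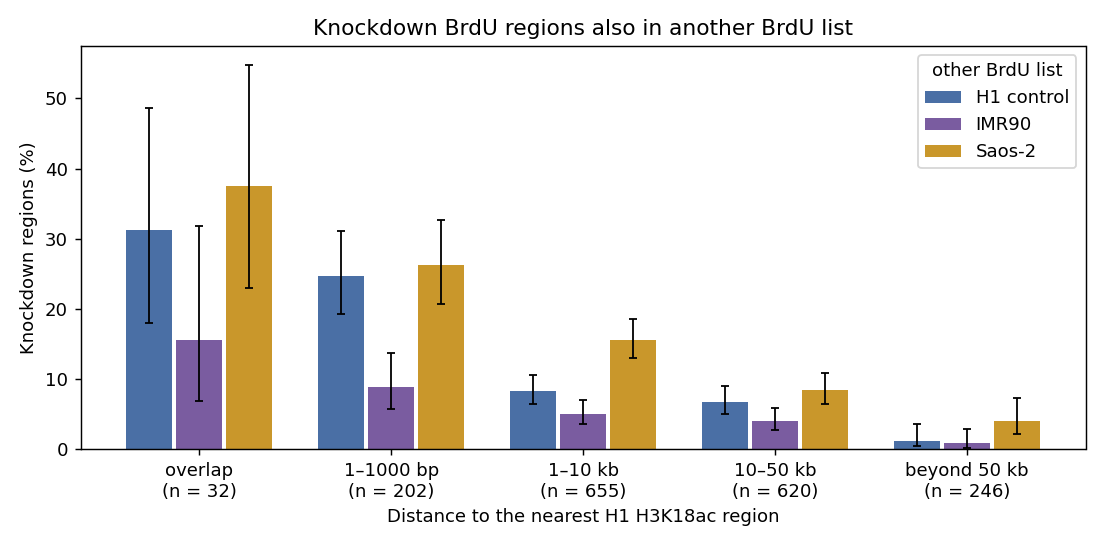
Share of knockdown BrdU regions in each class of distance to H1 H3K18ac that also overlap a region of the H1 control, IMR90 or Saos-2 BrdU list; bars carry 95% Wilson intervals and n is the number of knockdown regions in the class. Over regions of all widths, the share in H1 control is 31.3% in the overlap class and 1.22% beyond 50 kb.

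The 1484 knockdown regions in no other BrdU list still lay near the mark more often than their share of genome. Of these, 46.8% (44.3 to 49.4) overlapped the mark or lay within 10 kb, a zone that held 26.5% of the genome. The 271 regions that another BrdU list overlapped reached 71.6% (65.9 to 76.6). Direct overlap was 14 of 271 (5.17%) for the regions found again and 18 of 1484 (1.21%) for the rest, a difference of 3.95 points (1.77 to 7.30). Inside the highest score group the overlap difference was 1.04 points (-4.92 to 5.48), from 13 of 238 and 5 of 113 regions. There, 74.4% of the regions found again and 62.8% of the rest lay within 10 kb of the mark, a difference of 11.5 points (1.31 to 22.1).

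Where a knockdown region overlapped a control region that carries the mark, its bases lay in the mark about as often as those of the control region. Of the 159 knockdown regions that overlapped a control region, 31 lay on control regions that carry the mark, 30 in number with a median length of 800 bp. Of these 31, 10 touched the mark themselves, and the other 21 lay 1 to 701 bp from it, at a median of 201 bp. The mark filled 1200 of the 5200 bp of these knockdown regions (23.1%) and 5.90 of the 26.1 kb of the control regions that held them (22.6%). No interval was computed for these shares. The control regions were picked for touching the mark, and the knockdown regions had a median length of 100 bp, so the 2 shares are not on equal terms. Seen over all control regions, the knockdown list overlapped 6.74% (4.76 to 9.46) of those in the overlap class, 4.30%, 2.50% and 2.88% in the next 3 classes and 0.632% (0.215 to 1.84) of those beyond 50 kb. In the highest score group of the control list there was no such order, with 27 of 305 in the overlap class (8.85%), 23 of 174, 35 of 318 and 25 of 189 in the next 3, and 3 of 32 beyond 50 kb, all with overlapping intervals.

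Seen from the mark, fewer than 1 in 1000 H3K18ac regions carried a knockdown BrdU region. A knockdown region overlapped 32 of the 65946 H1 H3K18ac regions (0.0485%, 0.0344 to 0.0685), against 472 (0.716%) for the regions of the longer control list. Within 10 kb of a knockdown region lay 1846 H3K18ac regions (2.80%), and within 10 kb of a control region 6669 (10.1%). Of the 32 H3K18ac regions, 13 belonged to the highest of 5 score groups of the H3K18ac list and 4 to the lowest. Per Mb of mark this was 1.61 in the highest group, whose regions cover 8.08 Mb, and 3.03 in the lowest, which covers 1.32 Mb. Their median length was 250 bp beside 100 bp for the whole list.

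The 2 BrdU lists were also set side by side by the width of the H3K18ac region. Of the 1710 H3K18ac regions of 1000 bp or more, 8 (0.468%, 0.237 to 0.920) met a knockdown region and 19 (1.11%, 0.712 to 1.73) met a control region, with overlapping intervals; the change of the gap with width was not tested. Of the 35418 single-window H3K18ac regions, 13 (0.0367%, 0.0215 to 0.0628) met a knockdown region and 167 (0.472%, 0.405 to 0.548) met a control region. For widths of 200 to 400 bp the counts were 7 for knockdown and 195 for control, and for 500 to 900 bp 4 for knockdown and 91 for control. The 8 broad regions hit after the knockdown made up 25% of its 32 partners, and the 19 hit in the control 4.03% of its 472. Such regions were 2.59% of the whole H3K18ac list. Wider regions also hold more bases that can be met. Per Mb of mark, from the narrowest to the broadest width, 3.67, 1.21, 0.956 and 3.59 H3K18ac regions met a knockdown region. For control regions these values were 47.2, 33.7, 21.8 and 8.53.

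The density of knockdown regions changed less with distance to the fibroblast mark than with distance to the H1 mark. The IMR90 H3K18ac list, which covers 39.5 Mb, overlapped 36 knockdown regions (2.05%, 1.49 to 2.83) and 120 control regions (2.36%, 1.98 to 2.81). Per Mb there were 0.912 knockdown regions in the IMR90 mark (0.639 to 1.26), 0.820 at 1 to 1000 bp, 0.857 at 1 to 10 kb, 0.720 at 10 to 50 kb and 0.480 (0.444 to 0.518) beyond 50 kb. The ratio of overlap to the far class was 8.25 for the H1 mark (5.52 to 11.9) and 1.90 for the IMR90 mark. The H1 control list had the same contrast, with ratios of 59.4 for the H1 mark and 2.25 for the IMR90 mark. Of the 32 knockdown regions on the H1 mark, 5 were also on the IMR90 mark (15.6%, 6.86 to 31.8), as were 33 of the 445 control regions on the H1 mark (7.42%, 5.33 to 10.2).

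Autosomes differed in how close their knockdown regions lay to the mark. The share within 10 kb was highest on chromosome 19, where there were 61.8 H3K18ac regions per Mb, at 39 of 50 regions (78.0%, 64.8 to 87.2), and lowest on chromosome 20, with 30.4 H3K18ac regions per Mb, at 14 of 37 (37.8%, 24.1 to 53.9). In 20 of the 22 autosomes it was lower for knockdown than for control regions, the exceptions being chromosomes 3 and 19. The 6 autosomes without an overlapping region were chromosomes 8, 13, 16, 17, 18 and 20, with 37 to 69 knockdown regions each. Chromosome 4, with 13.0 H3K18ac regions per Mb, had 32 of 81 knockdown regions within 10 kb (39.5%), and a link to mark density was not tested. On the X chromosome the share was 17 of 62 (27.4%). X and Y together held 15.0% of the knockdown regions beyond 50 kb and 5.30% of the whole knockdown list.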

How the data were processed

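Each list is 1 BrdU or H3K18ac pull-down library. Per the labels' protocols, each BrdU pull-down began with 4 µg of DNA and each H3K18ac immunoprecipitation with 5000000 cells. Per the submitters' processing notes, Bowtie 0.12.7 and hg19 were used. For the region caller, its threshold, duplicate handling and the use of inputs, nothing is given in the sources used here. The score of each region is the authors' deposited whole number, of unstated meaning, and was used as a rank only. Read depth is unknown.

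Distances came from pandas 2.3.3 and numpy 2.4.6 (Python 3.11.15), intervals from scipy 1.17.1 and plots from matplotlib 3.10.9. Distance is start minus end to the nearest edge, so adjacent regions are 1 bp apart. Genome lengths were counted in 100 bp windows between the outermost regions of each chromosome, without 500 kb bins empty in all lists. The distance code was tested on simulated lists. Ties in score were ordered by position. Named regions are the 10 of highest score in the overlap class and the 3 of highest score in each other class. The members, classes and lists were chosen with earlier results of these data known. No hg19 gene annotation or genome sequence was used here, so regions carry no gene names and a planned marker check was not run. Alternatives are given at the end.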

Additional observations from a re-analysis of the deposited data

How the results depend on the processing

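No paired analysis was possible because each list comes from 1 library and no test was made. Of 84 values under 13 alternatives, 57 stayed within the counting interval of the reported value. None of the differences or ratios among them changed direction, and plain shares have no direction that could change. Leaving out each of the chromosomes in turn gave overlap shares of 1.71% to 1.90% and shares within 10 kb of 49.9% to 51.5%. Fewer H3K18ac regions lowered the shares by construction. With the upper 50% by score, overlap was 1.25% and within 10 kb 32.1%. With H3K18ac regions of 200 bp or more these were 1.08% and 29.9%. Other values are not fixed in this way. The overlap density was 5.50 times that beyond 50 kb with the upper 50% by score. With H3K18ac regions of 200 bp or more it was 4.68 times, and the highest minus lowest score group was 22.8 points within 10 kb. The knockdown upper 50% by score gave 2.85%, 58.6% and 18.01 times. Merging knockdown regions within 10 kb gave 2.59%, and 0.0773% of H3K18ac regions touched. Knockdown regions in no other BrdU list, a set chosen after the data were seen, gave 1.21%, 46.8%, 4.88 times, 18.7 points between score groups and 0.0273% of H3K18ac regions touched. The overlap difference, knockdown minus control, was -3.60 points with at least 50% of the region overlapped, -3.65 at midpoints, -4.68 with H3K18ac regions of 200 bp or more, -1.83 in single windows and -18.9 with the control list cut to as many regions of highest score. The difference within 10 kb was -8.16, -24.0, -4.07 and -15.8 points in single windows, with the cut control list, with the knockdown upper 50% by score and with knockdown regions in no other list. Single windows alone touched 0.0303% of H3K18ac regions. The cause of these shifts was not tested unless stated. Counting distance as bases between regions, also chosen after the data were seen, left every value computed for it within its interval.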
